A study of Mus musculus with 6 samples.

Results

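The heat shock chaperones of the cytosol and mitochondria were examined in liver RNA-sequencing of wild-type (WT) mice and mice lacking *Txndc5* (KO), which encodes a thioredoxin-domain protein disulfide isomerase of the endoplasmic reticulum (ER). Members were taken by symbol: every row of the gene table that begins with Hspa, Hspb, Hspd, Hspe, Hsph, Dnaja, Dnajb, Dnajc or Cct and goes on with a digit, together with *Hsp90aa1* and *Hsp90ab1*, but without *Hspa5*, *Dnajb9*, *Dnajb11*, *Dnajc3* and *Dnajc10*, which belong to the ER. This gave 67 of the 16123 genes in the table. A reading that asks for a digit right after the letters Hsp90a would leave 65 members, without the Hsp90 pair, and a reading by letters alone would give 69, with *Hspbp1* and *Hspbap1*. The symbols also take in 9 genes of the ER or other membranes (*Hspa13*, *Dnajb12*, *Dnajb14*, *Dnajc1*, *Dnajc14*, *Dnajc16*, *Dnajc18*, *Dnajc22* and *Dnajc25*) and *Hspb11*, an intraflagellar transport gene with a small heat shock protein name, so the set is wider than its usual description.

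Each genotype was represented by 3 libraries of liver RNA, and each library held equal amounts of RNA from 3 male mice. Mice of both genotypes were 2 months old at the start, ate a purified chow diet for 4 weeks and were fasted for 16 h before sacrifice. WT mice were labelled with the strain C57BL/6Rj. KO mice, labelled C57BL/6JRj-Txndc5<em2Mdnp>/Ciba, carried a germline deletion of exon 3 made with Cas9, so every cell type lacked the exon, and all descended from 1 founder. The table holds 1 value per genotype and gene (reads divided by a size factor for each library, with the difference between genotypes drawn towards 0 at low counts), and the values themselves carry no spread. A ratio of KO over WT of more than 1.5-fold was used to mark a gene, for genes whose mean over both genotypes was at least 10. That mark is a size and not a test.

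The heat shock proteins of the cytosol and mitochondria are folding machinery of the cell outside the secretory pathway. Hsp70 proteins hold exposed stretches of a client and release them as they turn over ATP; J proteins (the DnaJ families) bring them clients and start ATP hydrolysis, and Hsp110 proteins exchange the nucleotide. Clients pass from Hsp70 to Hsp90, which finishes kinases and steroid receptors, or to closed chambers, the CCT complex for actin and tubulin in the cytosol and Hsp60 with its lid Hsp10 in mitochondria, while small heat shock proteins hold unfolded clients without ATP. Heat shock factor 1 (*Hsf1*) switches on the stress-inducible members through repeated GAA units in their promoters, known as heat shock elements.

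Heat shock elements in the promoters were searched for in the RefSeq windows of the GRCm38.p6 assembly, which run from 250 bases before to 50 bases after a start site. The submitters' processing notes name mm10, the same assembly. The element was taken as 3 alternating units, either GAA, TTC and GAA or TTC, GAA and TTC, with any 2 bases (NN) between neighbouring units, on both strands, and these forms may overlap one another. Of the 53 members with a window, 4 held it, *Hspd1*, *Hspe1*, *Dnajb6* and *Hsph1*, against 0.576% of the 12665 genes of the table that have a window. The forms with 2 units, GAA and TTC in either order with NN between them, which every 3-unit site also contains, were in 16 members (30.2%) against 14.3% of genes. *Hspa1a* and *Hspa1b*, which are inducible, were among these 16 and held no 3-unit site in the window. The sites of the 4 members are shown because they are the matches found. Capitals mark the element.
*Hspd1* and *Hspe1*, chr1:55088053-55088082, plus strand: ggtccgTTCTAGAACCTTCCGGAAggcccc
*Dnajb6*, chr5:29735844-29735873, plus strand: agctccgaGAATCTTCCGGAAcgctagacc
*Hsph1*, chr5:149636287-149636301, minus strand: aTTCTGGAAAGTTCt
*Hspd1* and *Hspe1* encode Hsp60 and Hsp10 and lie head to head on chromosome 1. The *Hspe1* start site and an *Hspd1* start site whose window holds the element are 216 bases apart. A single run of 18 bases between these start sites, chr1:55088059-55088076, carries 2 overlapping matches and falls in windows of both genes. It lies 126 bases from that *Hspd1* start and 71 bases from the *Hspe1* start. The whole *Hspd1* gene reaches chr1:55088243, past the *Hspe1* start at 55088148, so it takes in the run. GENCODE places that run, and the *Dnajb6* site, inside the first exon of a longer transcript of *Hspd1* and of *Dnajb6*. In *Hsph1* the match lies 16 or 37 bases after the start site in the windows that hold it. The gene itself reaches further upstream, to chr5:149636498. The element did not go with 1 direction of the ratio, as the log2 values of KO over WT were 0.48 for *Hsph1*, 0.08 for *Dnajb6*, -0.18 for *Hspd1* and -0.35 for *Hspe1*.

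*Txndc5* itself was checked first. Its value was 2697 in WT and 90.8 in KO (log2 ratio -4.89). The libraries had 44040160 to 46050030 clean reads, 91.63% to 93.66% of which mapped. Liver identity was clear from *Alb*, at 1329546 in WT and 1332576 in KO, and the hepatocyte list had 0 of 6 genes past 1.5-fold. Of the red cell markers, 6 of 6 were higher in KO and 3 of 6 past 1.5-fold, and their sum was 118830 in WT and 180430 in KO. Among the other cell types, 1 of 6 macrophage genes (*Marco*, 0.62) and 1 of 5 stellate cell genes (*Col1a1*, 0.76) were past 1.5-fold, both higher in KO. The stellate list was mixed, with *Col3a1* (0.56) and *Reln* (0.17) also above 0 and *Dcn* (-0.50) and *Lrat* (-0.44) below. Its sum was 2018 in WT and 1789 in KO. Of the macrophage genes, 4 were above 0 and 2 below. The counts past 1.5-fold were 0 of 5 for endothelium and for cholangiocytes. Of genes past the minimum they were 0 of 4 for muscle and 0 of 1 for lymphocytes. In whole liver, fewer cells of a type and less RNA per cell cannot be told apart, and the part of these cell types in the chaperone ratios was not tested.

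Across the chaperones as a whole the genotypes were close. Of the 67 members, 59 had a mean of at least 10 and 8 were below it (*Hspa1l*, *Hspa12a*, *Hspb2*, *Hspb7*, *Dnajb13*, *Dnajc6*, *Dnajc27* and *Cct6b*). Among the 59, 0 were higher in KO past 1.5-fold and 3 were lower, which is 5.08% of them, against 7.35% of the 11367 genes with that mean, or 1.57% higher and 5.79% lower. The member share is thus near the background. When the ratios were centred on the median of all genes, 1 was higher (*Dnajb14*, 0.59) and 2 were lower, as *Dnajc21* moved to -0.55. *Dnajc21* also left the count with a pseudocount of 10 (-0.54), and *Dnajc24* is below a minimum mean of 50, so each of these settings left 2 lower members. The median log2 ratio of the members was 0.01 (SD across genes 0.30, range -1.03 to 0.54), with 30 above 0 and 29 below, beside a median of -0.05 (SD 0.32) for all genes. The 3 lower members, *Dnajc24*, *Dnajb4* and *Dnajc21*, were all J proteins, which make up 33 of the 59 members. Closest within the line on the lower side were *Dnajc2* (-0.57) and *Dnajc19* (-0.51), and on the higher side *Dnajb14* (0.54) and *Hsph1* (0.48).

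**Figure D1:**
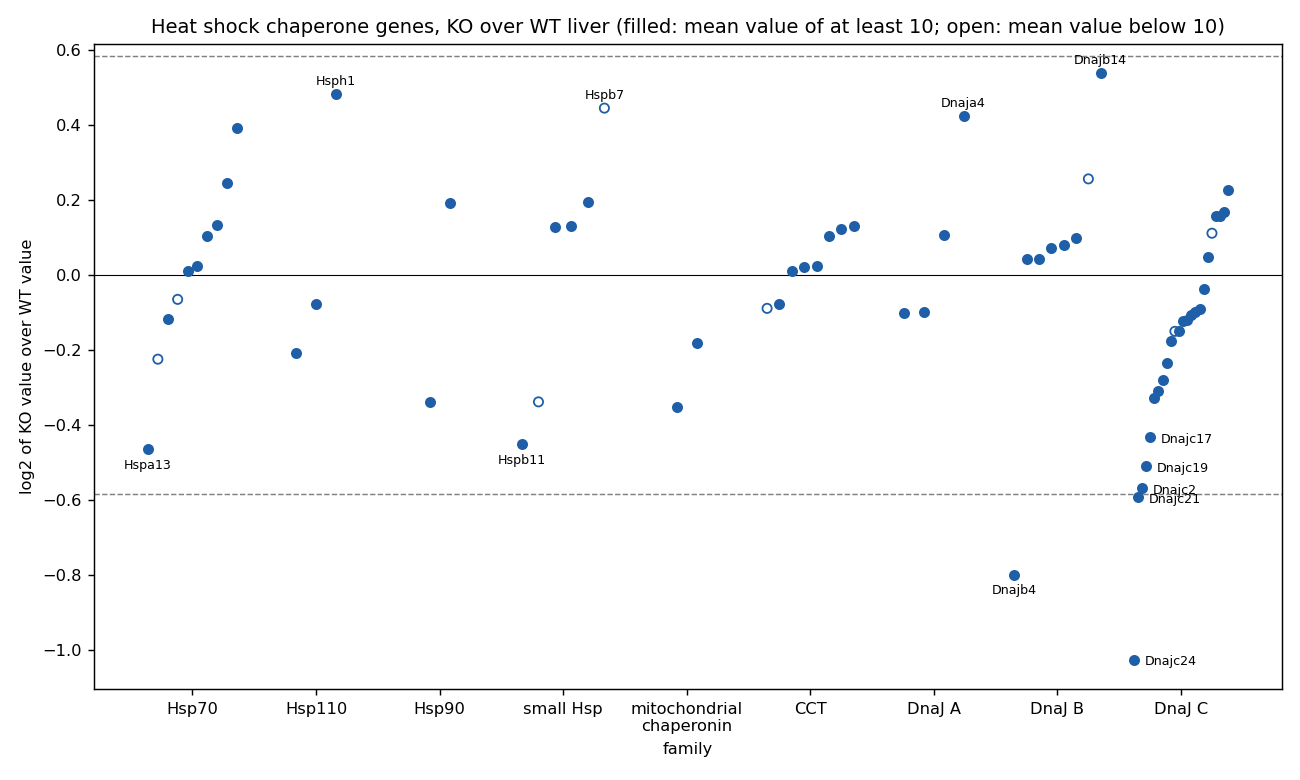
The log2 ratio of the KO value over the WT value for each of the 67 members, by family and sorted within it. Filled points have a mean value of at least 10, open points a lower one, and dashes mark 1.5-fold. Below the lower dash lie *Dnajc24*, *Dnajb4* and *Dnajc21*, while no filled point is above the upper dash.

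The members were also described by level. Among the 28 members with a mean of at least 500, the log2 ratio ran from -0.35 to 0.48 with a median of 0.04, and 0 were past 1.5-fold, against 2% of the 2999 genes of that level. Of the 15 members between 100 and 500, 2 were past it (*Dnajb4* and *Dnajc21*), where 5.31% of genes were. Of the 16 between 10 and 100, 1 was (*Dnajc24*), where 13.0% of genes were. The 3 marked members all lie below a mean of 500, where a larger share of all genes passes the line than at 500 or more. The plot of level against ratio shows this. Between 100 and 500, the 5.31% of genes is still under the 7.35% over all levels, and the 2 members are 13.3% of the 15.

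**Figure D2:**
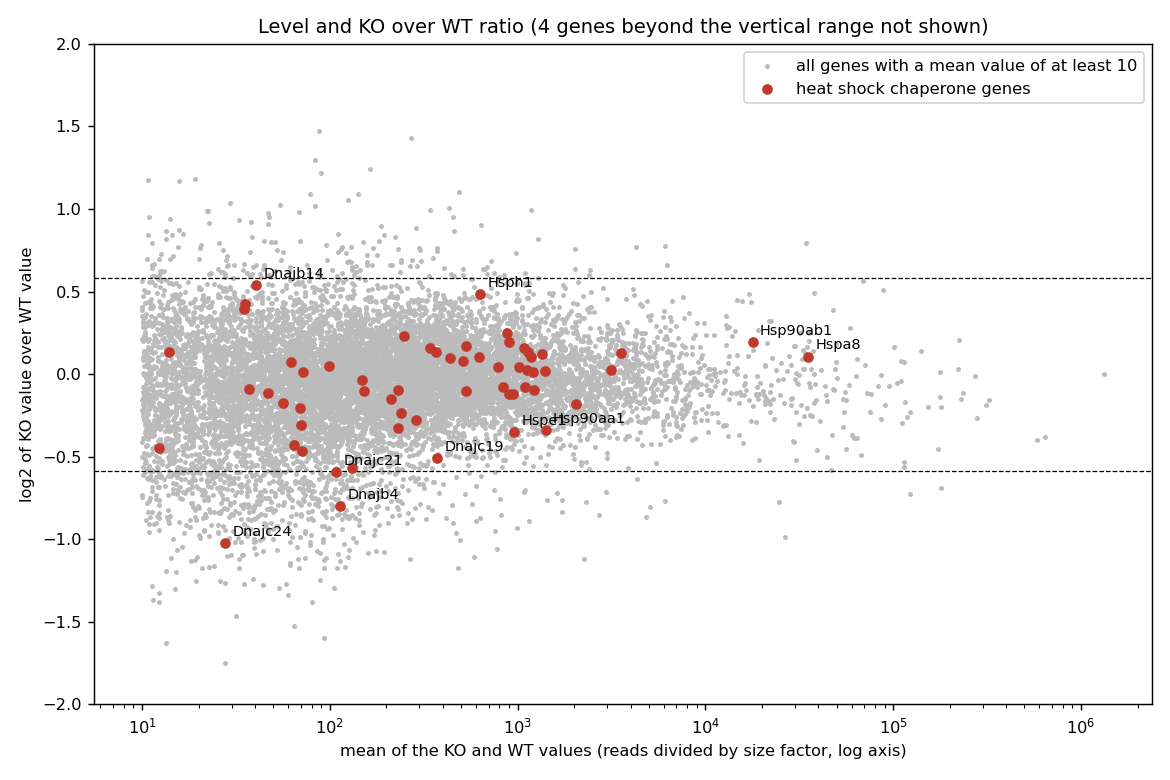
The mean of the KO and WT values (reads divided by size factor, log axis) against the log2 ratio of KO over WT, for genes with a mean of at least 10 (grey) and the chaperones (red). Members at high levels such as *Hspa8* and *Hsp90ab1* lie near 0, and 4 genes outside the vertical range are left out.

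Per length of the gene model, the constitutive pair of the cytosol led the family. *Hspa8*, the constitutive Hsc70, had a level of 16813 per kb (mean over both genotypes), 40.4% of the summed level of all members. *Hsp90ab1*, the constitutive Hsp90, had 7115 per kb. *Hspb8*, a small heat shock protein that works with the co-chaperone Bag3 in selective autophagy, was next at 1953 per kb, ahead of *Hspe1* at 1218 per kb and *Hspa9*, the Hsp70 of the mitochondrial matrix, at 1024 per kb. The order of the first 4 was the same in both genotypes, while the fifth place was held by *Hspa9* in WT and *Hspb1* in KO. The values of these genes have no spread between pools, so neighbours in this upper part of the order were not compared.

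**Figure D3:**
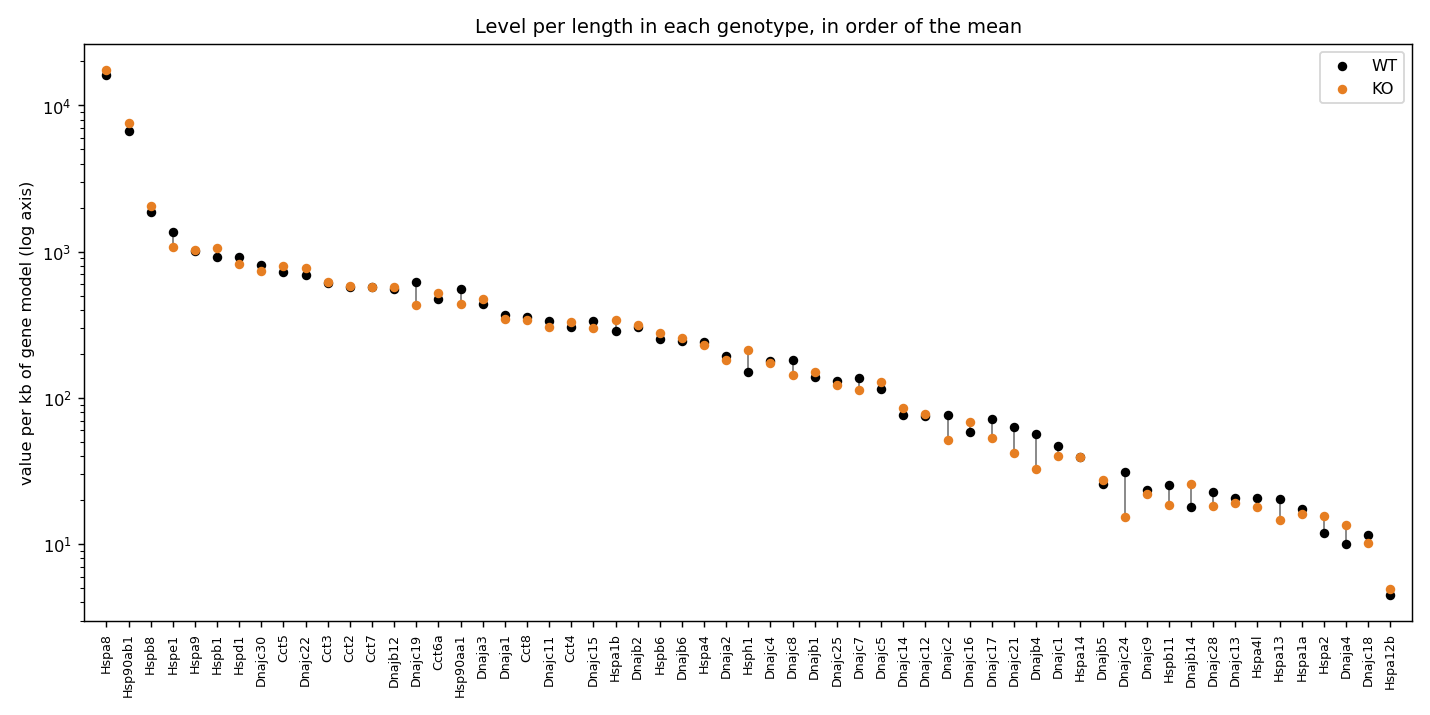
The value per kb of gene model (log axis) in WT (black) and KO (orange) for the 59 members with a mean of at least 10, in order of the mean of both. *Hspa8* and *Hsp90ab1* stand above the others in both genotypes, and the gaps between genotypes are wider at the lower end, as at *Dnajc24* and *Dnajb4*.

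The Hsp70 proteins are the hub of the system. *Hspa8* was 34084 in WT and 36663 in KO (log2 ratio 0.11). *Hspa9* was 3114 in WT and 3169 in KO (0.03). *Hspa14*, the Hsp70 relative that sits on the ribosome, was 71.9 in WT and 72.4 in KO. By the deposited values, these housekeeping forms thus stood nearly equal in both genotypes. *Hspa8* and *Hspa9* have no spread to set this against. For *Hspa14*, the log2 ratio of recovered means was -0.22 without the KO library of size factor 1.04 and 0.15 without that of 1.31. *Hspa13*, a microsomal Hsp70 relative, had the lowest ratio of the family, at 82.5 in WT and 59.8 in KO (log2 -0.46). That direction rests on 1 WT library: without the WT library of size factor 1.22, the recovered means were 51.4 in WT and 57.1 in KO (0.15). *Hspa2*, known mainly from testis, had the highest at 0.39, on values of 30.2 and 39.7. The genotypes overlapped in its recovered reads, and its limma difference of 0.45 ran from 0.16 without the KO library of size factor 1.31 to 0.70 without that of 0.886. In all, 8 of the 10 Hsp70 genes reached the minimum, with 6 above 0 and 0 past 1.5-fold.

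The stress-inducible Hsp70 is encoded by a pair of near-identical genes on chromosome 17, *Hspa1a* and *Hspa1b*. Their coding sequences are 1926 and 1929 bases long, with 1918 identical bases, 8 mismatches and 3 gapped positions (99.4% identity), and 99 of the 100 bases before their start sites are the same. Of the 1830 stretches of 100 bases in the *Hspa1b* coding sequence, 67.8% hold no difference from *Hspa1a*. The stretch of 90 bases below is shown to let the copies be compared; it has 2 differences, which are in capitals (GRCm38, minus strand).
*Hspa1a*, chr17:34970484-34970573: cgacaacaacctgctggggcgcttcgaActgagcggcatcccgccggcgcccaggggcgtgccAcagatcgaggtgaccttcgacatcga
*Hspa1b*, chr17:34957566-34957655: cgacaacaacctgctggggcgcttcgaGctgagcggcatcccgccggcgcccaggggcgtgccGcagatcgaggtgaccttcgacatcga
Reads of one copy can be given to the other, so the values of each gene are uncertain. *Hspa1b* was 806 in WT and 956 in KO, and *Hspa1a* was 48.9 in WT and 45.1 in KO. Summed, the pair had 855 in WT and 1001 in KO (log2 ratio 0.23). By these deposited values the copies were within 1.5-fold between genotypes, taken apart or together. From recovered reads, however, the limma difference of *Hspa1a* was 0.08 (SE 1.71) and ran from -2.05 without the WT library of size factor 0.879 to 1.26 without the KO library of size factor 1.04, so its direction was not settled. *Hspa1b* has no recovered reads.

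The J proteins hold 36 members, and 33 of them reached the minimum. All 3 marked chaperones are among these 33, which is 9.09% of them, near the 7.35% of all genes past the minimum. The SD of the ratios across genes was 0.25 in type A, 0.40 in type B and 0.30 in type C, beside 0.32 for all genes. In type A (*Dnaja1* to *Dnaja4*), the full-length co-chaperones of Hsp70, 0 of 4 were past 1.5-fold and the ratios ran from -0.10 to 0.42. *Dnaja1* was 1263 in WT and 1180 in KO, and *Dnaja2* was 550 and 513. *Dnaja3*, which works in mitochondria as Tid1, was 1129 in WT and 1215 in KO.

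In type B, 1 of 7 was past the line (14.3%), where 7.35% of all genes were. *Dnajb1*, the inducible Hsp40, was 422 in WT and 452 in KO (0.10), and *Dnajb6*, known for holding back aggregation, was 496 and 524 (0.08). *Dnajb4*, a close relative of *Dnajb1*, was instead lower, at 145 in WT and 83.1 in KO (log2 ratio -0.80). At the other end, *Dnajb14*, a J protein of the ER membrane, was 33.1 in WT and 48.0 in KO (0.54), which is within the line as deposited. It is past the line when centred (0.59) and by the ratio of its recovered group means (0.65), but that ratio was within the line without the KO library of size factor 1.04 (0.46) or the WT library of size factor 0.818 (0.52).

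In type C, which holds J proteins of specialised tasks, 17 of 22 ratios were below 0, where 57.7% of all genes were, and 16 of 22 when centred, where all genes are split evenly by construction. Type C has 2 marked genes (9.09% of the 22, against 7.35% of all genes), and both have a known task in translation. *Dnajc24*, the Dph4 protein needed to make diphthamide on elongation factor 2, was 37.3 in WT and 18.3 in KO (log2 ratio -1.03). *Dnajc21*, which takes part in the maturation of the large ribosomal subunit, was 130 in WT and 86.5 in KO (-0.59). *Dnajc2*, the ribosome-associated zuotin, was 156 in WT and 105 in KO (-0.57). Together with the splicing-associated *Dnajc8* (-0.33) and *Dnajc17* (-0.43) and the histone chaperone *Dnajc9* (-0.09), 6 of 6 type C genes of RNA, ribosomes and chromatin were below 0. That grouping was made after their values were seen and carries no test. From recovered reads, the limma difference of *Dnajc9* was -0.14, but 0.04 without the KO library of size factor 0.886. That of *Dnajc17* was -0.42, but -0.07 without the WT library of size factor 0.879 and -0.78 without that of 1.22. The 6 type C genes of membranes were split, with *Dnajc16* (0.23), *Dnajc14* (0.16) and *Dnajc22* (0.16) above 0 and *Dnajc1* (-0.24), *Dnajc18* (-0.18) and *Dnajc25* (-0.10) below. From recovered reads, *Dnajc18* had a limma difference of -0.18, but -0.03 without the WT library of size factor 0.879.

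Hsp110 and Hsp90 genes were within 1.5-fold in all 5 cases. *Hsph1*, the inducible Hsp105 that serves as an exchange factor of Hsp70, was 527 in WT and 736 in KO, the highest ratio (0.48) of any member with a mean of at least 500. Its relative *Hspa4* was 1125 and 1067 (-0.08), and *Hspa4l* was 74.5 and 64.6 (-0.21). The direction of *Hspa4l* rests on single libraries: the log2 ratio of its recovered means was -0.28, but 0.54 without the WT library of size factor 1.22 and 0.01 without the KO library of size factor 1.04. Differences between the inducible and constitutive forms were not tested. The inducible *Hsp90aa1* was 1573 in WT and 1245 in KO (-0.34), while the constitutive *Hsp90ab1* was 16643 in WT and 19030 in KO (0.19). By the deposited values, the inducible *Hsph1* was thus above 0 and the inducible *Hsp90aa1* below it.

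Small heat shock proteins were all within the line by the deposited values. *Hspb8* was 3404 in WT and 3723 in KO (0.13), and *Hspb1*, the Hsp25 that also binds actin, was 843 and 965 (0.19). *Hspb6* had a ratio of 0.13. *Hspb11*, the intraflagellar gene, was the only 1 of the 4 past the minimum below 0, at -0.45. The ratio of its recovered group means was -0.64, which is past the line, but -0.44 without the KO library of size factor 1.31 and -0.57 without the WT library of size factor 1.22, both within it.

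The chaperonins form closed chambers in both compartments, and 0 of the 9 past the minimum were past 1.5-fold. In the CCT complex of the cytosol, *Cct2* to *Cct5*, *Cct6a*, *Cct7* and *Cct8* had ratios from -0.08 to 0.13 (SD 0.08), the narrowest spread of any family of 3 or more, with 0 of 7 past 1.5-fold. *Cct8* was the only 1 of them below 0, and *Tcp1*, which encodes the remaining subunit of the ring and is no member by its symbol, was at -0.02. In the mitochondrial pair, *Hspd1* was 2175 in WT and 1919 in KO (-0.18), and *Hspe1* was 1076 in WT and 843 in KO (-0.35). The difference between the chaperonin families was not tested.

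Across compartments, 8 of the 10 mitochondrial members were below 0, with a median of -0.14 and 0 past 1.5-fold, where 57.7% of all genes were below 0 and 7.35% past 1.5-fold. When centred, 7 of the 10 were below 0, as *Dnajc4* moved above it. Besides the chaperonin pair these are 6 type C J proteins, of which *Dnajc19*, the Tim14 subunit of the import motor, was lowest at 438 in WT and 308 in KO (-0.51). The 37 cytosolic and nuclear members past the minimum had a median of 0.02, and the 9 of the ER or other membranes a median of 0.04. The SD of the ratios across genes was 0.18 for mitochondria and 0.32 for cytosol and nucleus, and the difference between these medians was not tested.

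Reads per library were recovered for part of the members to set the ratios against the spread between pools. The midpoint of the deposited values is a mean of whole reads divided by 6 size factors, so for genes with a sum of up to 450 normalised reads the 6 whole numbers can be found. This resolved 8294 of 8370 such genes (99.1%) and 23 of the 67 members. The other 44 members, among them *Dnajb4* and *Dnajc21*, remain without a spread. The size factors were 1.22, 0.879 and 0.818 in WT and 1.31, 1.04 and 0.886 in KO, and below the libraries are given in that order, since they could not be matched to the pool numbers of the labels. Of the 23 members, 8 had a sum under 60 and 15 a sum of 60 to 450. In 3 of the 15, the genotypes did not overlap. These were *Dnajc24* and *Hspb11*, lower in KO, and *Dnaja4*, higher in KO. Over all 3538 genes of that sum, 2.57% had every KO library below every WT library and 3.17% every KO library above.

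*Dnajc24* had 36.7, 33.0 and 50.1 normalised reads in the WT libraries and 25.9, 9.65 and 11.3 in the KO libraries. The means were 40.0 ± 9.02 (SD, n = 3) in WT and 15.6 ± 8.95 (SD, n = 3) in KO, with every KO library below every WT library. A two-sided exact permutation test gave p = 0.1, the smallest that 3 against 3 allows. In the limma fit over 3305 genes the log2 difference was -1.41 (SE 0.47), and the gene did not pass after Benjamini-Hochberg adjustment (limma adjusted p = 0.999). Leaving out each library in turn, the limma difference ran from -1.82 to -1.15. Among the 15 members it had the largest log2 difference between the recovered genotype means, at -1.36, beside the deposited ratio of -1.03, which carries shrinkage.

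*Dnaja4*, a type A J protein, had 35.1, 17.1 and 35.5 normalised reads in WT and 45.0, 43.4 and 37.3 in KO. The KO libraries were close to one another and all above WT, with 1 WT library well under the other two. The exact permutation p was 0.1 and the limma difference 0.57 (SE 0.43, adjusted p = 0.999). Without the WT library of size factor 0.879, the low one, the difference was 0.24, and leaving out each library in turn it ran from there to 0.74. *Hspb11* had 16.3, 12.5 and 15.9 in WT and 6.86, 10.6 and 11.3 in KO. The nearest libraries of the genotypes were close in both genes, at 35.5 in WT and 37.3 in KO for *Dnaja4* and 12.5 in WT and 11.3 in KO for *Hspb11*. *Hspb11* had an exact permutation p of 0.1 and a limma difference of -0.61 (SE 0.40, adjusted p = 0.999). Without the KO library of size factor 1.31 the difference was -0.40.

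In the other 12 members the genotypes overlapped. Leaving out each library in turn, the ratio of recovered means kept its direction in 8 of the 15 members and turned in 7 (*Hspa1a*, *Hspa4l*, *Hspa12b*, *Hspa13*, *Hspa14*, *Dnajb5* and *Dnajc9*), and it stayed past 1.5-fold in 1, *Dnajc24*. *Dnajb14* had 38.4, 30.7 and 25.7 normalised reads in WT and 51.8, 61.8 and 35.0 in KO, so 1 KO library fell among the WT values (exact permutation p = 0.2). *Hspa14* had 83.3, 68.2 and 63.6 in WT and 58.7, 94.6 and 64.4 in KO. *Hspa1a* had 96.3, 0 and 69.7 in WT and 91.4, 2.90 and 21.5 in KO, the widest spread relative to its means of the 15, and the split of reads with *Hspa1b* bears on each of these values. *Hspa13* had 153, 46.6 and 56.3 in WT and 80.0, 33.8 and 57.6 in KO, and 1 WT library stood well above the other 5.

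*Hspa4l*, *Dnajc28*, *Hspa13*, *Hspa1a*, *Hspa2* and *Hspa12b* were each highest, within both genotypes, in the library of the largest size factor. That is 6 of 15 members (40%), against 40.8% of all genes of that sum. *Hspa4l* had 142, 54.6 and 31.8 in WT and 116, 35.7 and 37.3 in KO. This pair of libraries stood apart from the other 4 across the recovered genes: the first principal component held 49.5% of the variance, and their deviations from the genotype means correlated at 0.61 across genes. Without the pair, 9 of the 15 members did not overlap, where 35.1% of genes did not, with only 2 libraries per genotype. The part of the pair in the ratios of members with no recovered reads was not tested.

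**Figure D4:**
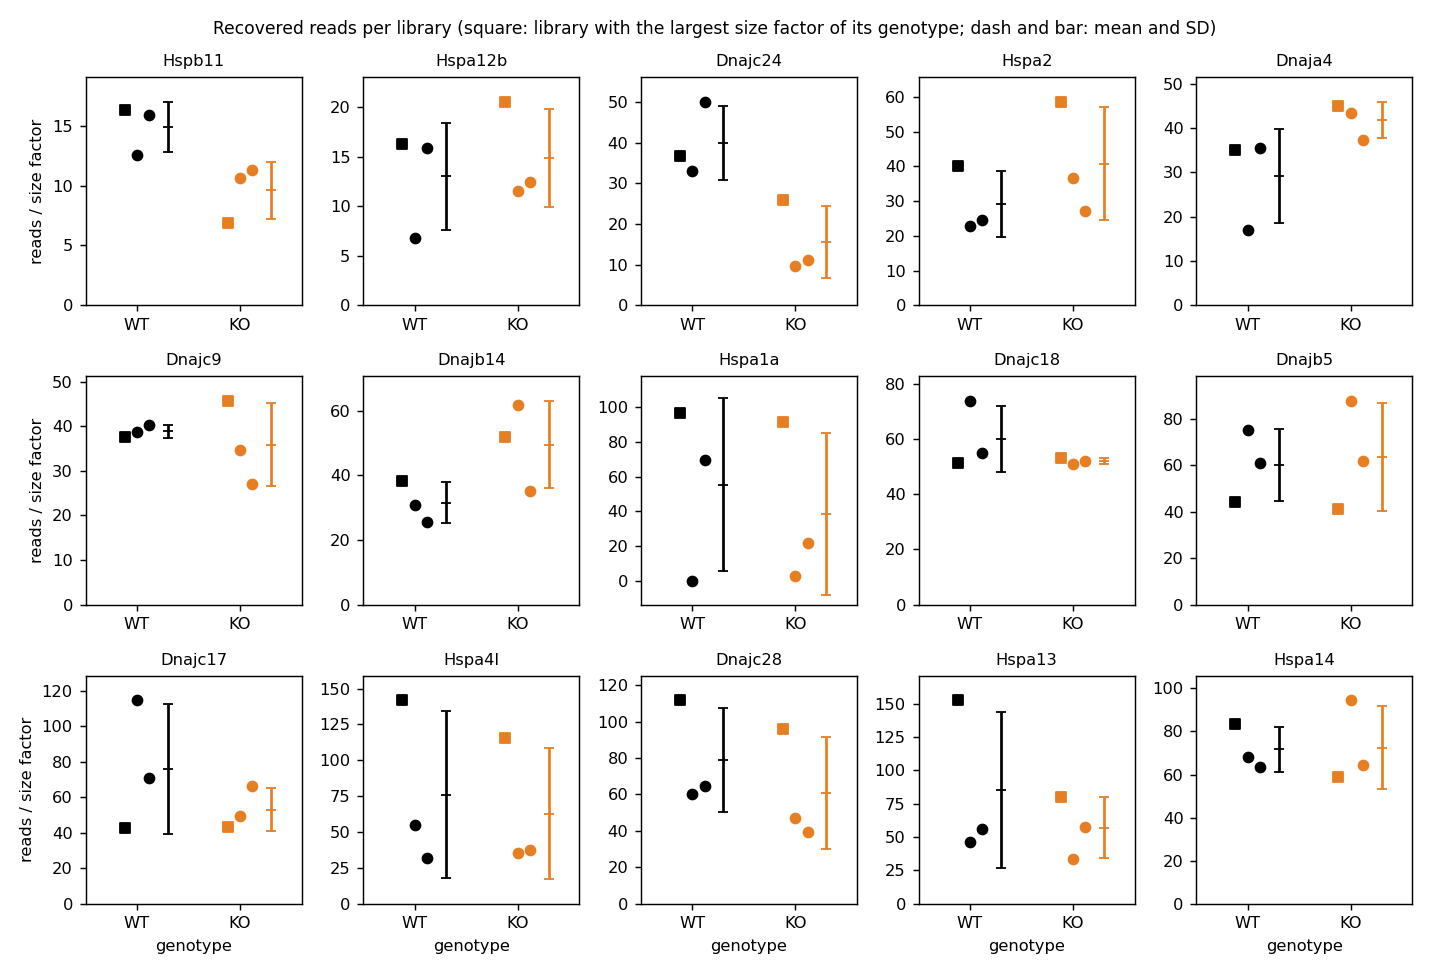
Recovered reads divided by size factor in each library for the 15 members with a sum of 60 to 450, WT in black and KO in orange. Squares mark the library of the largest size factor in its genotype, and the dash with bar is the mean ± SD (n = 3). *Dnajc24*, *Hspb11* and *Dnaja4* are the panels in which all KO points lie on one side of all WT points.

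In the limma fit, 1 of 3305 genes had an adjusted p under 0.05 (0.0303%), *Moap1*, which is no member. Of the 11 members that entered it, 0 passed, with a lowest adjusted p of 0.999, and 1 (*Dnajc24*) had an unadjusted p under 0.05, against 1.94% of all genes fitted in either direction and 1.33% lower in KO. With a term for the pair of libraries with the largest size factors, 7.32% of genes had an unadjusted p under 0.05, and the number of genes passing after adjustment was again 1.

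The partners of the chaperones were described from a list of 54 genes, of which 53 reached the minimum. Of these, 1 was higher and 2 were lower past 1.5-fold, and the median was -0.17. Over all genes, 1.57% were higher and 5.79% lower, 57.7% were below 0 and the median was -0.05. *Hsf1*, the regulator of the response, was 255 in WT and 236 in KO (-0.11), and *Hsf2* and *Hsf4* were also within the line. *Fkbp5*, a co-chaperone of Hsp90 that is induced by glucocorticoids, was the higher gene, at 593 in WT and 908 in KO (0.61). The other 26 co-chaperones of Hsp70 and Hsp90 were within the line. *Clpx*, the unfolding subunit of the matrix protease ClpXP, was 777 in WT and 419 in KO (-0.89), and *Yme1l1*, a protease of the inner membrane, was 296 and 168 (-0.82). These are the lower genes, and both act in mitochondrial protein quality control. Of the 12 mitochondrial partners listed, 9 were below 0. The chaperonin partners are *Tcp1* and 9 prefoldin and phosducin-like genes that serve CCT. Of these, 10 of 10 were below 0 (median -0.27), or 9 of 10 when centred, where *Tcp1* was above 0, with 0 past 1.5-fold.

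**Figure D5:**
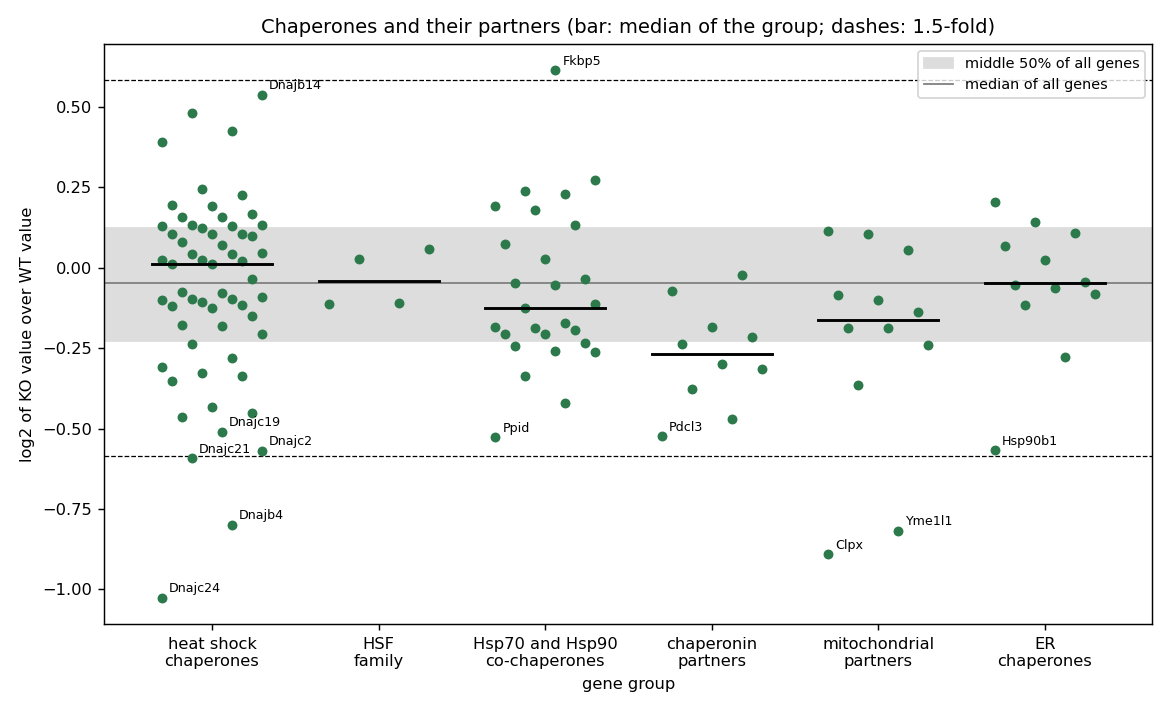
The log2 ratio of KO over WT for the chaperones and for each group of partners with a mean of at least 10, with the median of each group as a bar. The grey band holds the middle 50% of all genes. *Fkbp5* lies above 1.5-fold and *Clpx* and *Yme1l1* below it, while the chaperonin partners are all under 0.

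The ER chaperones, which share a compartment with TXNDC5, were set beside the members from a list of 12. Among them 0 were past 1.5-fold and the median was -0.05. *Hsp90b1*, the Hsp90 of the ER, was lowest at 4609 in WT and 3112 in KO (-0.57), and *Hspa5*, its Hsp70, was 5430 and 5199 (-0.06). So the constitutive Hsp90 of the cytosol was slightly higher in KO and that of the ER lower, each by less than 1.5-fold and with no spread to set it against. Of 8 genes that follow temperature and the clock, 2 were past 1.5-fold, *Arntl* (-0.99) and *Clock* (-0.91), both lower, where 7.35% of all genes were past it (13.0% at the level of *Arntl* and 5.31% at that of *Clock*). *Nr1d1* was at -0.51, *Per2* at 0.44, *Dbp* at 0.18 and *Per1* at 0.13, and the cold-induced *Cirbp* was at -0.17 and *Rbm3* at -0.28, all 6 within the line.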

How the data were processed

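Liver poly(A) RNA from 3 WT and 3 KO pools was sequenced. The submitters' processing notes name HISAT2, StringTie, Cufflinks, GATK, Bowtie2, RSEM and mm10, and versions are not given in the sources used here. The authors deposited 1 normalised signal (reads divided by size factors) per genotype and gene, and its KO over WT ratio carries shrinkage. The deposited table also holds the authors' own fold changes, p-values and direction calls, which were not used. The deposited counts of clean reads and the deposited percent values of mapping describe each library. Log2 ratios were taken with a pseudocount of 0, a minimum mean of 10 and a line of 1.5-fold, with no test. Whole reads per library were recovered from the midpoint of the genotype values, and 1114 of 1114 recovered genes with a log2 ratio beyond 0.5 kept the direction of the table. The recovered reads were tested with limma 3.58.1 on log2(normalised reads + 1) over genes with a sum of 60 to 400, adjusted by Benjamini-Hochberg, and with exact permutation tests. Recovery and fit were tested on simulated data. Python 3.11.15 and R 4.3.3 were used.

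The members and all gene lists were chosen with earlier results of these data known. Named genes were the members past 1.5-fold, the 3 highest and 3 lowest ratios, a list of the main heat shock proteins, the 5 highest per length and the recovered members whose genotypes did not overlap. Other members are named for their role and were chosen after their values were seen. Pools are separate sets of mice, and p-values measure the spread between 3 pools. The total of recovered reads is not the depth of a library. Protein sequences were not analysed here.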

Additional observations from a re-analysis of the deposited data

How the results depend on the processing

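Of the 59 members past the minimum, 15 were past a lower line of 0.32 on the log2 scale (4 higher, 11 lower) and 1 past a line of 2-fold. Of all genes, 8.27% were higher and 16.4% lower past that lower line, and 0.158% and 0.739% past 2-fold. With the ratio of recovered group means in place of the deposited ratio where reads were recovered, 5 were past 1.5-fold (1 higher, *Dnajb14*, and 4 lower, with *Hspb11* added). That alternative, the 60 to 450 range, the library left out in turn for overlap and the set of 4 libraries were chosen after seeing the data. Centring on the median of all genes gave 1 higher and 2 lower members. For the partners, the counts were 10 at that lower line (1 higher, 9 lower) and 0 at 2-fold. A pseudocount of 10 gave a log2 ratio of -4.75 for *Txndc5*. It moved 8 of 71 single-gene ratios by over 0.1, all of genes at low values, and a pseudocount of 1 moved 1. Centring turned the small ratio of *Dnajc4* from -0.04 to 0.01. Leaving out each recovered library in turn, limma made 0 to 1 calls, with the call lost without each library except the WT library of size factor 1.22. The number of recovered members without overlap ran from 3 to 7, with 5 without the KO library of size factor 1.31 and 7 without the WT library of size factor 1.22. *Dnajc24*, *Hspb11* and *Dnaja4* were among them each time. In the 4 libraries other than the largest pair it was 9 of 15. Scaling by summed recovered reads moved the median limma difference of all genes from -0.07 to 0.06. No paired analysis was possible because the pools of both genotypes share only 1 number and the table carries none. The share of genes with an unadjusted limma p under 0.05, 1.94% with all libraries, was 4.60% without the KO library of size factor 1.31, 0.787% without that of 1.04 and 0.908% without that of 0.886. It was 3.66% without the WT library of size factor 1.22, 2.15% without that of 0.879 and 3.90% without that of 0.818. Members with higher values have no spread.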
